A study of Mus musculus with 16 samples.

Results

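Counts of 10 genes best known from lung epithelium were taken from RNA-Seq of mouse thyroid glands. The genes were the surfactant proteins *Sftpa1*, *Sftpb*, *Sftpc* and *Sftpd*, the surfactant processing and storage genes *Abca3*, *Napsa* and *Lamp3*, and the secretoglobins *Scgb1a1*, *Scgb3a1* and *Scgb3a2*. Each was found by its symbol, which gave 10 of the 25611 entries of the count table. *Sftpb* was selected on its genotype difference, since its counts were already known to be higher in thyroid glands of knockout mice, so its values are given as a description and without a test. The other 9 genes were named for their use in lung, to see whether the difference in *Sftpb* was shared by a wider set of lung genes. Thyroid glands came from C57BL/6 mice aged 1 month, 4 per group, from WT and *Glis3*-Pax8Cre mice on either of 2 diets, which is written in brackets after the genotype. ND is the NIH-31 normal diet and LID a low-iodine diet, and the study's methods give 6 days on the LID. Knockout mice carried the conditional allele Glis3<tm2Amj> and the allele Pax8<tm1.1(cre)Mbu>, in which the Pax8 locus drives Cre and so removes exon 5 of *Glis3* in cells that express *Pax8*. Other cells of the gland keep *Glis3*, and the labels call the controls WT without saying whether they carried the floxed allele or Cre. Each sample was labelled as a separate replicate of its group.

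Pulmonary surfactant is a film of lipid and protein made by alveolar type 2 cells, which store it in lamellar bodies. The secretoglobins are small secreted proteins of club cells and other airway epithelium. Thyroid follicular cells and lung epithelium both depend on the transcription factor NKX2-1, which binds regulatory DNA of thyroid genes such as *Tg* and of lung genes such as *Sftpb* and *Scgb1a1*. GLIS3 is a zinc finger factor that in the thyroid is needed for expression of the iodide transporter gene *Slc5a5*.

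Between 13892352 and 461077969 counts were assigned to genes per library, and values are given as CPM, the count scaled to the TMM-adjusted library size. A level of 3 counts, the most that a count of 0 allows for, lay between 0.00674 and 0.188 CPM, and this limit covers counting error only. Whole-gene counts of *Glis3* were 73.0 ± 18.7 CPM for WT(ND), 96.1 ± 8.41 CPM in the *Glis3*-Pax8Cre(ND) mice, 156 ± 21.7 CPM for WT(LID) and 165 ± 37.4 CPM for *Glis3*-Pax8Cre(LID) (SD, n = 4 each). The genotypes overlapped under LID and nearly met under ND, so a count over the whole gene did not check the deletion of a single exon. *Slc5a5* was at 8.43 to 20.2 CPM in all 8 knockout libraries and at 81.8 to 2178 CPM in the WT libraries.

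A pair of libraries stood apart from their groups. WT(ND) replicate 3 had 996 CPM of *Pax8*, against 374 to 397 CPM in the other WT(ND) libraries and 643 to 989 CPM in the *Glis3*-Pax8Cre(ND) mice. Its *Slc5a5*, at 81.8 CPM, was the lowest of WT(ND). The position of this library was measured over the 991 genes called between the ND genotypes without it. The call for this measure was an edgeR adjusted p under 0.01 with a fold over 2. On a scale where 0 is the mean of the other WT(ND) libraries and 1 the mean of the knockouts, its median position was 0.496. Of these genes, 49.3% were nearer the knockout mean. The same measure, with the genes called without each library in turn, was -0.179 to -0.0135 in the other WT(ND) libraries and 0.842 to 0.979 in the knockout libraries. *Glis3*-Pax8Cre(LID) replicate 1 was high in the 3 secretoglobins and in other airway genes, described below. Both keep their labels, and values without them are given for many, but not all, results in which they change a call or move a difference by more than 1.5-fold.

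**Figure D1:**
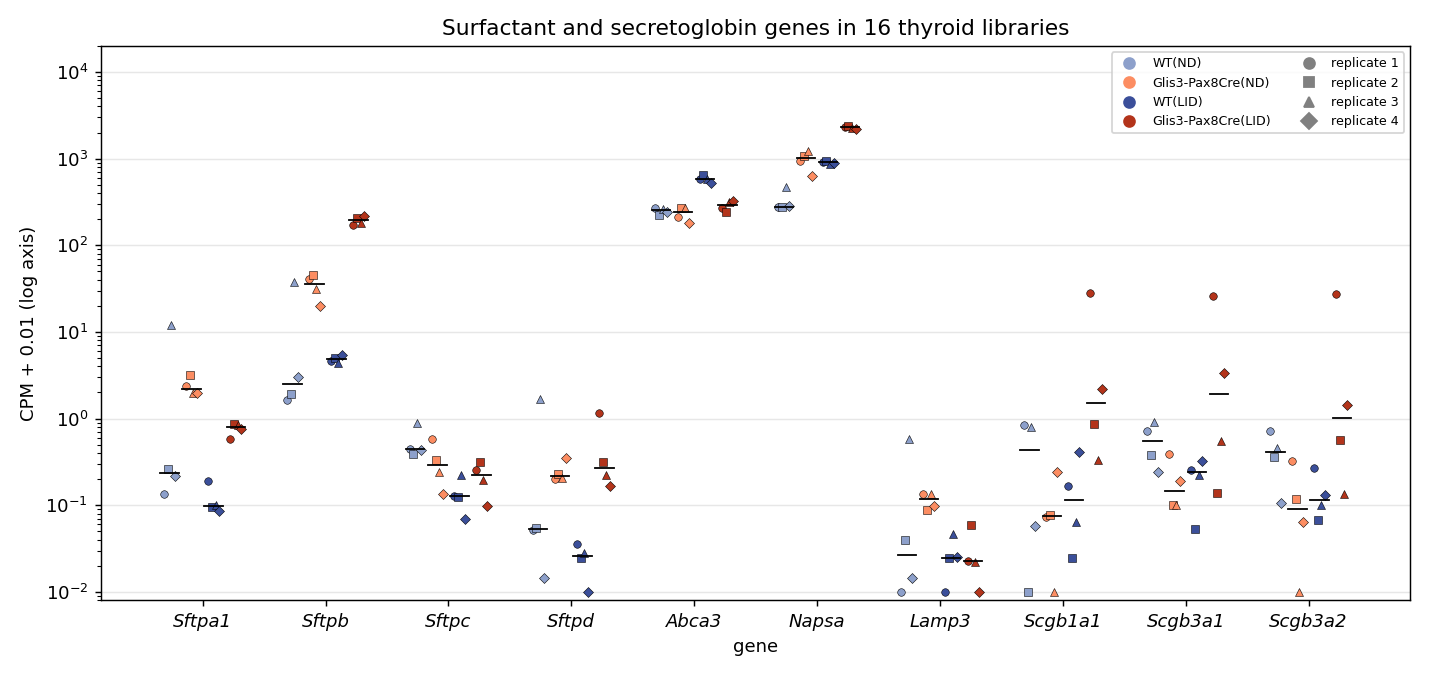
CPM + 0.01 on a log axis for the 10 genes, with 1 point per library, colour for the group, shape for the replicate number and a bar at the group median. *Sftpb* and *Napsa* stand highest in *Glis3*-Pax8Cre(LID), the *Abca3* levels stand highest in WT(LID), and single libraries stand out in WT(ND) for the surfactant proteins (12.0 CPM of *Sftpa1*) and in *Glis3*-Pax8Cre(LID) for the secretoglobins (27.8 CPM of *Scgb1a1*).

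*Sftpb* encodes surfactant protein B, a small hydrophobic protein needed for lamellar bodies and for spreading of the lipid film. It lies at chr6:72304610-72314373 on the plus strand of mm10. Its level was 1.61, 1.89, 38.0 and 3.04 CPM for WT(ND) replicates 1 to 4. In *Glis3*-Pax8Cre(ND) it was 40.4, 45.9, 31.5 and 20.1 CPM. All *Glis3*-Pax8Cre(ND) libraries lay above WT(ND) replicates 1, 2 and 4, and WT(ND) replicate 3 lay among them. Under LID the level was 4.67, 4.96, 4.33 and 5.44 CPM in WT and 174, 208, 181 and 216 CPM in *Glis3*-Pax8Cre. The LID genotypes were far apart, with a ratio of means of 40.1 and a fitted log2 fold change of 5.33 ± 0.95 (SE). Under ND the ratio of means was 3.10 and the log2 fold change 1.64 ± 0.81, and without WT(ND) replicate 3 they were 15.8 and 3.96 ± 0.29. Among knockout mice the level under LID was 5.65 times that under ND. The order of the group means was *Glis3*-Pax8Cre(LID) at 195 ± 20.3, *Glis3*-Pax8Cre(ND) at 34.5 ± 11.3, WT(ND) at 11.1 ± 17.9 and WT(LID) at 4.85 ± 0.472 CPM (SD, n = 4 each). WT(ND) overlapped *Glis3*-Pax8Cre(ND), and its mean differed from that of WT(LID) by less than its SD. Without WT(ND) replicate 3, WT(LID) was above WT(ND), at 4.85 ± 0.472 (SD, n = 4) and 2.18 ± 0.755 CPM (SD, n = 3), so the order of the WT groups rests on that library. In whole glands, fewer cells of a type cannot be told apart from less RNA per cell, here and for every gene that follows.

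Sequences 250 bases long ending at the RefSeq transcription start were at hand for 5 of the 10 genes (RefSeq, GRCm38.p6, which has the mm10 coordinates). They were searched on both strands for CTCAAG, the core letters bound by NKX2-1, and for TGGGGGGT, letters of the GLIS binding motif. The windows of *Sftpb*, *Sftpa1* and *Abca3* are shown to set *Sftpb* beside a second surfactant protein gene and a lamellar body gene that was lower in the knockout under LID. Capitals mark CTCAAG. They are, 5′ to 3′ on the plus strand, chr6:72304360-72304609, chr14:41131538-41131787 and chr17:24351773-24352022.
Sftpb: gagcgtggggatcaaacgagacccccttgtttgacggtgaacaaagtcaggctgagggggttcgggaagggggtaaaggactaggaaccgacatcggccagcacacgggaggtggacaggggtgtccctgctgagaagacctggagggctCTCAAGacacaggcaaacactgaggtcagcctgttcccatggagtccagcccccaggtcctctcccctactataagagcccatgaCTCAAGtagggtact
Sftpa1: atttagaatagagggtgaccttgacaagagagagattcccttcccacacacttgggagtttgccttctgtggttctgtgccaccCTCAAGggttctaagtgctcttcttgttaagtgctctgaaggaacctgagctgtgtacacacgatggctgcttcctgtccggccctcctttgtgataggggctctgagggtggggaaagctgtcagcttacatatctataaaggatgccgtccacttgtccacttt
Abca3: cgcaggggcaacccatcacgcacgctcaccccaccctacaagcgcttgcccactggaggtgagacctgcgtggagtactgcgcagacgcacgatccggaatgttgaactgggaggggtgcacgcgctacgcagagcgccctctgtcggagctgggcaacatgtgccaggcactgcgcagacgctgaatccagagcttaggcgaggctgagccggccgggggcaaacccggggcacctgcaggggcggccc
The *Sftpb* window held CTCAAG at 100 to 95 and at 15 to 10 bases before the start, and the *Sftpa1* window held it once, at 166 to 161 bases. *Scgb3a1* had it once on the other strand, at 172 to 167 bases before the start, while *Abca3* and *Lamp3* had 0. Of all 32851 promoter windows of this length, 13.3% held CTCAAG. TGGGGGGT was found in 0 of the 5 windows, against 1.36% of all windows. A match to these letters is a description of the sequence, and binding was not measured here.

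*Sftpa1* and *Sftpd* encode the collectins SP-A and SP-D, soluble lectins of surfactant that bind microbes. *Sftpa1*, at chr14:41131788-41136373 (plus strand), was at 0.126, 0.249, 12.0 and 0.207 CPM for WT(ND) and at 2.38, 3.19, 1.98 and 1.98 CPM in the *Glis3*-Pax8Cre(ND) mice. WT(ND) replicate 3 was the highest of all 16 libraries, and the other WT(ND) libraries lay below every knockout library. Under LID the values were 14, 6, 5 and 5 counts in WT, or 0.075 to 0.182 CPM, and 44, 52, 67 and 43 counts in *Glis3*-Pax8Cre, or 0.570 to 0.846 CPM. The LID genotypes did not overlap, with a ratio of means of 6.92, but the difference was not called by edgeR (log2 fold change 2.76 ± 1.26, adjusted p = 0.116). Without WT(ND) replicate 3, which enters the shared estimate of spread, the log2 fold change was 2.75 ± 0.31 with an adjusted p of 1.03e-05. Under ND the log2 fold change was -0.39 ± 1.06 (edgeR adjusted p = 0.831) with all libraries and 3.62 ± 0.34 (adjusted p = 3.38e-06) without that library, so both its sign and its call rest on 1 mouse. *Sftpa1* and *Sftpb* differed in their order between the diets. Among knockouts *Sftpb* was higher under LID, whereas *Sftpa1* was lower there in all 4 libraries, by a log2 fold change of -1.67 ± 1.10 that edgeR did not call (adjusted p = 0.283). It was called in the 8 knockout samples alone, both without a block for the replicate number (-1.68, adjusted p = 0.00202) and with the replicate block (-1.65, adjusted p = 0.00359), and also without WT(ND) replicate 3 (-1.68 ± 0.27, adjusted p = 0.000545).

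*Sftpd*, at chr14:41172212-41185198 (minus strand), was near the limit of detection in WT. It had 3, 3, 118 and 2 counts in WT(ND) and 2, 1, 1 and 0 counts in WT(LID). In *Glis3*-Pax8Cre(ND) it had 3, 36, 11 and 19 counts, or 0.188 to 0.339 CPM. In *Glis3*-Pax8Cre(LID) it had 88, 19, 17 and 9 counts, or 1.14, 0.309, 0.210 and 0.158 CPM. All 4 of these libraries lay above those of WT(LID), and replicate 1 stood above the other 3. *Sftpd* rose in *Glis3*-Pax8Cre(LID) against WT(LID), with a fitted log2 fold change of 4.83 ± 1.65 that depends on the prior count at such low WT levels (edgeR adjusted p = 0.0393). That call was lost without *Glis3*-Pax8Cre(LID) replicate 1 (3.82 ± 1.70, adjusted p = 0.116) and also without any 1 of the WT(LID) libraries (highest adjusted p 0.0913), and it held with a smaller adjusted p without WT(ND) replicate 3 (0.000601) and without both libraries (3.81 ± 0.72, adjusted p = 0.00127). Under ND it was not called with all libraries (log2 fold change -0.82 ± 1.21, adjusted p = 0.672) and was higher in the knockout without WT(ND) replicate 3 (3.49 ± 0.91, adjusted p = 0.0125). The interaction of genotype and diet for *Sftpd* was 5.65 ± 2.08 and was not called (edgeR adjusted p = 0.0950). Without WT(ND) replicate 3 it was 1.34.

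*Sftpc* encodes surfactant protein C, the most restricted marker of alveolar type 2 cells, and lies at chr14:70520942-70524081 (minus strand). It was at 0.434, 0.381, 0.890 and 0.429 CPM for WT(ND) and at 0.565, 0.321, 0.234 and 0.125 CPM in the *Glis3*-Pax8Cre(ND) mice. Under LID the level was 0.117, 0.115, 0.216 and 0.0600 CPM in WT and 0.246, 0.309, 0.186 and 0.0879 CPM in *Glis3*-Pax8Cre. It stayed under 1 CPM in all 16 libraries, and the genotypes overlapped on both diets. No genotype difference was called (edgeR log2 fold change 0.73 ± 0.50, adjusted p = 0.302 under LID, and -0.89 ± 0.46, adjusted p = 0.194 under ND). Between the WT diets *Sftpc* was lower under LID (log2 fold change -2.07 ± 0.48, adjusted p = 0.00288), a call that held without WT(ND) replicate 3 (-1.71 ± 0.48, adjusted p = 0.0107). *Sftpa1* and *Sftpd* were also called lower in WT(LID) than in WT(ND), with adjusted p of 0.00897 and 0.0332, but without WT(ND) replicate 3 the adjusted p were 0.0692 and 0.83.

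*Napsa* encodes napsin A, an aspartic protease that cuts the precursors of surfactant proteins B and C. It lies at chr7:44572445-44586846 (plus strand). In contrast to the surfactant proteins it was abundant in every library. The level was 277, 275, 472 and 281 CPM for WT(ND) and 940, 1076, 1213 and 633 CPM in the *Glis3*-Pax8Cre(ND) mice. Under LID its level was 922, 947, 875 and 889 CPM in WT and 2332, 2395, 2275 and 2227 CPM in *Glis3*-Pax8Cre. Neither the genotypes nor the diets overlapped. *Napsa* rose in the knockout under LID (edgeR log2 fold change 1.35 ± 0.19, adjusted p = 7.82e-05) and under ND (1.57 ± 0.19, adjusted p = 9.28e-05). It also rose from ND to LID in WT (1.48 ± 0.19, adjusted p = 2.31e-05) and in *Glis3*-Pax8Cre mice (1.26 ± 0.19, adjusted p = 0.000276). The interaction of genotype and diet was -0.22 ± 0.26 on the log2 scale and was not called (edgeR adjusted p = 0.648). Both genotype calls and both diet calls held without either library that stood apart.

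*Abca3* encodes the lipid transporter of the lamellar body membrane and lies at chr17:24352023-24410204 (plus strand), where it overlaps the entry D330041H03Rik, so that reads of the overlap cannot be assigned with certainty. It was at 266, 222, 264 and 240 CPM for WT(ND) and at 211, 272, 273 and 182 CPM in the *Glis3*-Pax8Cre(ND) mice. In WT(LID) it was at 590, 641, 576 and 530 CPM, and in *Glis3*-Pax8Cre(LID) at 268, 243, 313 and 324 CPM. WT(LID) lay above all other libraries, and the other groups overlapped. *Abca3* rose under LID in WT (edgeR log2 fold change 1.24 ± 0.13, adjusted p = 3.78e-06). In *Glis3*-Pax8Cre mice the diet difference was 0.29 ± 0.13 and was not called (adjusted p = 0.113). *Abca3* was thus lower in the knockout under LID (-1.03 ± 0.13, adjusted p = 3.27e-05) and not called under ND (-0.08 ± 0.13, adjusted p = 0.701). The interaction was -0.94 ± 0.18 (edgeR adjusted p = 0.00365). Its direction under LID was opposite to that of *Sftpb* and *Napsa*.

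*Lamp3*, at chr16:19653381-19706365 (minus strand), encodes a lysosomal membrane protein of lamellar bodies that is also made by mature dendritic cells. It had 0, 2, 40 and 2 counts in WT(ND), 2, 13, 7 and 5 counts in *Glis3*-Pax8Cre(ND), 0, 1, 2 and 1 counts in WT(LID) and 1, 3, 1 and 0 counts in *Glis3*-Pax8Cre(LID). WT(ND) replicate 3 had the most counts, and both LID groups were at 3 counts or fewer. It did not pass the filter on low counts and was not tested. Under ND the ratio of the knockout mean to the WT mean was 0.700 with all libraries. Without the 2 libraries that stood apart it was 9.30, at few counts. The summed level of 10 dendritic cell markers was 50.9 to 59.7 CPM for WT(ND), with 55.2 CPM in replicate 3, 50.7 to 102 CPM in the *Glis3*-Pax8Cre(ND) mice, 84.4 to 102 CPM for WT(LID) and 50.1 to 62.1 CPM in *Glis3*-Pax8Cre(LID). Their part in the *Lamp3* counts was not tested.

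**Figure D2:**
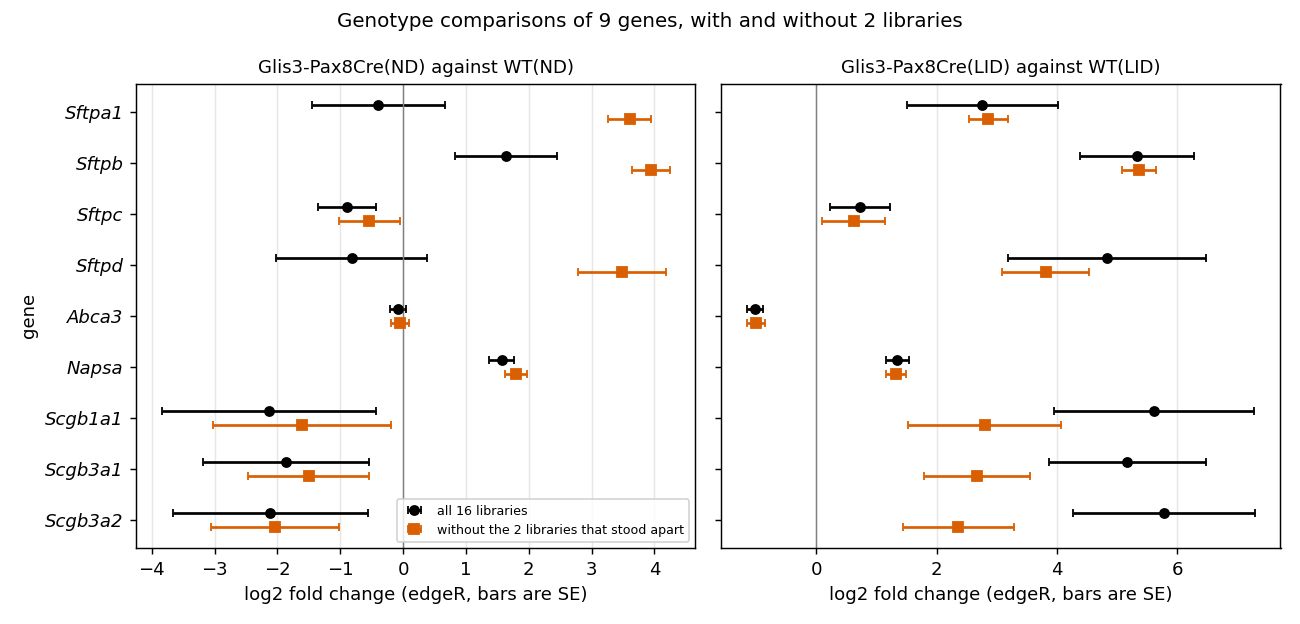
Fitted log2 fold changes with their SE for the 9 genes that were fitted, knockout against WT under ND (left) and LID (right), with all 16 libraries (circles) and without the 2 libraries that stood apart (squares). Without these libraries *Sftpa1*, *Sftpb* and *Sftpd* lie at 3.60, 3.95 and 3.48 under ND, and the secretoglobins lie at 2.79, 2.67 and 2.36 under LID, down from 5.61, 5.17 and 5.78.

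The secretoglobins stood at 3.32 CPM or less in 15 of the 16 libraries. *Scgb1a1* (chr19:9083642-9087956, minus strand), the classic club cell protein, was at 0.841, 0, 0.791 and 0.0472 CPM for WT(ND), 0.0627, 0.0666, 0 and 0.232 CPM in the *Glis3*-Pax8Cre(ND) mice and 0.156, 0.0143, 0.0539 and 0.405 CPM for WT(LID). In *Glis3*-Pax8Cre(LID) it was at 27.8, 0.846, 0.322 and 2.20 CPM. *Scgb3a1* (chr11:49663595-49665118, plus strand) was at 25.7, 0.130, 0.544 and 3.32 CPM in *Glis3*-Pax8Cre(LID), and *Scgb3a2* (chr18:43764301-43767399, plus strand), both airway secretory proteins, at 27.6, 0.553, 0.124 and 1.44 CPM. The 3 genes thus shared a single high library, replicate 1, followed by replicate 4, and in the other groups *Scgb3a1* and *Scgb3a2* did not exceed 0.904 and 0.715 CPM. All 3 were called higher by edgeR in the knockout under LID, with log2 fold changes of 5.61 ± 1.66 (adjusted p = 0.0211), 5.17 ± 1.31 (adjusted p = 0.00854) and 5.78 ± 1.51 (adjusted p = 0.0105). Without replicate 1 the values were 2.80 ± 1.26 (adjusted p = 0.121), 2.68 ± 0.88 (adjusted p = 0.0368) and 2.37 ± 0.90 (adjusted p = 0.0655), and the genotypes overlapped for each gene with and without that library. In the 8 LID samples alone none of the 3 was called (adjusted p of 0.0529, 0.0621 and 0.0606), and *Scgb1a1* also lost its call without WT(LID) replicate 1, 2 or 3 (adjusted p of 0.0560 to 0.0610). Under ND all 3 were fitted lower in the knockout and none was called (adjusted p of 0.344 to 0.409). The interactions of genotype and diet were 7.74, 7.04 and 7.89 (adjusted p of 0.0473, 0.0228 and 0.0282), and without both libraries that stood apart none of these was called (adjusted p of 0.191, 0.0642 and 0.0652). Without *Glis3*-Pax8Cre(LID) replicate 1 alone they were 4.95, 4.53 and 4.48 (adjusted p of 0.113, 0.0378 and 0.0449). Over the 16 fits that each left out 1 library, the interaction call was lost in 12 for *Scgb1a1*, in 1 for *Scgb3a1* and in 7 for *Scgb3a2*. Of 30 secretoglobin symbols in the table, 21 had 0 counts in all libraries, and 4 others reached 10 counts (*Scgb1b27*, *Scgb1c1*, *Scgb2b26* and *Scgb2b27*).

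Some other airway genes were high in the same library, and those given here are part of longer lists. *Bpifa1*, a secreted airway defence protein, was at 193 CPM in *Glis3*-Pax8Cre(LID) replicate 1 and at 0.487 to 16 CPM in the other 15 libraries. *Ltf*, which encodes lactoferrin, was at 30.7 CPM there and at 2.23 CPM or less elsewhere. *Cyp2f2*, a cytochrome P450 of club cells, was at 36.2 CPM there and at 9.53 CPM or less elsewhere. The airway mucin gene *Muc5b* was at 3.85 CPM there and at 0.445 CPM or less elsewhere, and the basal cell keratin gene *Krt15* at 17.0 CPM against 1.72 CPM or less. The summed level of 5 cartilage markers was also highest of its group in this library, at 30.8 CPM within a range of 15.2 to 30.8 CPM, and *Glis3*-Pax8Cre(ND) was at 27.5 to 38.5 CPM. The airway basal cell genes summed to 48.8 CPM in replicate 1 and to 32.2 to 43.2 CPM for WT(LID). Their sums reached 118 CPM for WT(ND) and 144 CPM in the *Glis3*-Pax8Cre(ND) mice. The ciliated cell list had its highest sum of the group (183 CPM) in replicate 2. That sum was 120 to 183 CPM in this group, with 130 CPM in replicate 1, and 230 to 297 CPM for WT(LID). The part that RNA of airway tissue had in the secretoglobin counts was not tested.

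**Figure D3:**
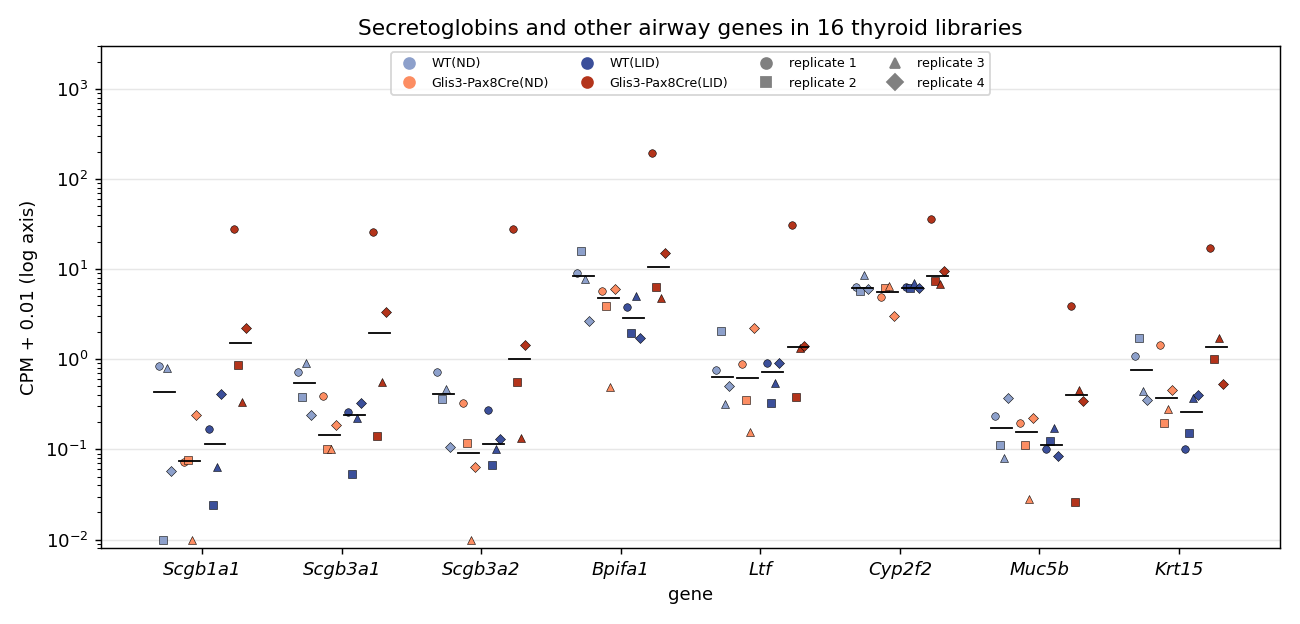
CPM + 0.01 on a log axis for the 3 secretoglobins and 5 other airway genes, 1 point per library with colour for the group and shape for the replicate number, and a bar at the group median. The circle of *Glis3*-Pax8Cre(LID) replicate 1 is the highest point for every gene shown, from 3.85 CPM of *Muc5b* to 193 CPM of *Bpifa1*.

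Of the 9 genes other than *Sftpb*, 8 passed the filter and were tested. In *Glis3*-Pax8Cre(LID) against WT(LID), 5 were called higher (*Sftpd*, *Napsa* and the 3 secretoglobins) and 1 lower (*Abca3*), where 30.2% of the 16630 genes tested were called in either direction, 14.9% higher and 15.4% lower. Without *Glis3*-Pax8Cre(LID) replicate 1 the calls were 3, namely *Napsa*, *Scgb3a1* and *Abca3*, and 26.9% of all genes were called. Under ND 1 gene was called, *Napsa*, where 19.6% of all genes were called, and without WT(ND) replicate 3 these were 3, with *Sftpa1* and *Sftpd* added, against 21.7% of all genes. The diet comparison in WT called 5 genes, 2 of them higher under LID (*Abca3* and *Napsa*) and 3 lower (*Sftpa1*, *Sftpc* and *Sftpd*), where 41.7% of all genes were called. Among knockouts 4 were called, all higher under LID (*Napsa* and the 3 secretoglobins), against 25.4%, and *Scgb1a1* lost this call without replicate 1 (adjusted p = 0.0765) and without *Glis3*-Pax8Cre(ND) replicate 2 (adjusted p = 0.0592). In the 8 knockout samples alone 2 genes were called, *Napsa* and *Sftpa1*, and the secretoglobins were not (adjusted p of 0.0695, 0.0883 and 0.0985). The interaction called 4 genes, the 3 secretoglobins above 0 and *Abca3* below it, where 11.8% of all genes were called, 4.43% above and 7.41% below 0. Genes with low counts passed the filter only where enough libraries, at least as many as in a group, reached its threshold. The filter used the same values as the tests, so these counts carry no weight as a share of the 9. The genotype comparisons share their WT and knockout samples with the diet comparisons and are not independent of them.

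Levels of different genes were compared per kilobase of merged exons. In *Glis3*-Pax8Cre(LID) *Napsa* was at 867 ± 27.2, *Sftpb* at 98.9 ± 10.3 and *Abca3* at 30.6 ± 4.04 CPM per kb (SD, n = 4). *Sftpa1*, *Sftpc* and *Sftpd* were at 0.262 ± 0.0442, 0.200 ± 0.0911 and 0.188 ± 0.191 CPM per kb in the same libraries. These 3 were near each other relative to their spread, and *Sftpb* was the single surfactant protein well above them. In WT(LID) *Sftpb* was at 2.47 ± 0.240 CPM per kb, between *Abca3* at 62.3 ± 4.87 and *Sftpc* at 0.123 ± 0.0627 CPM per kb.

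The wider set held 69 genes of lung epithelium in 6 lists, of which 62 were tested. In *Glis3*-Pax8Cre(LID) against WT(LID), 18 were called higher and 9 lower, 29.0% and 14.5% of those tested, where 14.9% and 15.4% of all genes were called. Without *Glis3*-Pax8Cre(LID) replicate 1 the counts were 13 higher and 9 lower of 63 tested, where 12.8% of all genes were called higher. Under ND 8 were higher and 9 lower, 12.9% and 14.5%, against 10.3% and 9.25% of all genes. The median log2 fold change of the 62 genes was 0.29 under LID and -0.10 under ND, where the medians of all genes were 0.01 and 0.02.

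Among 16 other alveolar type 2 genes, 14 were tested, and 4 were higher and 1 lower in the knockout on each diet. Over all genes 14.9% were higher and 15.4% lower under LID, and 10.3% and 9.25% under ND. *Slc34a2*, the phosphate transporter of alveolar type 2 cells, was at 1.93, 1.20, 13.7 and 1.49 CPM for WT(ND) and at 19.9, 36.4, 46.3 and 19.8 CPM in the *Glis3*-Pax8Cre(ND) mice. Under LID the values were 4, 9.26, 18 and 6.12 CPM in WT and 47.5, 100, 94.3 and 62.1 CPM in the knockout. Knockout libraries lay above WT on both diets, and it was called on both (edgeR log2 fold change 3.03 ± 0.77, adjusted p = 0.00908 under LID, and 2.76 ± 0.77, adjusted p = 0.0240 under ND). The ND value was 4.33 ± 0.57 without WT(ND) replicate 3, and the ND call was lost without WT(ND) replicate 1, 2 or 4 or *Glis3*-Pax8Cre(ND) replicate 3 (adjusted p of 0.0571 to 0.0694). *Muc1*, a membrane mucin of many epithelia, rose from 25.6 ± 3.06 to 142 ± 21.4 CPM under LID (SD, n = 4 each, 2.47 ± 0.46, edgeR adjusted p = 0.000990). Under ND *Muc1* was at 5.19, 6.00, 26.6 and 5.32 CPM in WT and at 24.2 to 40.4 CPM in the knockout (1.65 ± 0.45, edgeR adjusted p = 0.0208). The ND value of *Muc1* was 2.63 ± 0.18 without WT(ND) replicate 3, and its call was lost without WT(ND) replicate 1, 2 or 4 (adjusted p of 0.0585 to 0.0621). *Egfl6*, a secreted matrix protein, also rose on both diets (1.66 ± 0.25, adjusted p = 0.000137 under LID, and 1.08 ± 0.24, adjusted p = 0.00673 under ND, or 1.5 ± 0.15 without WT(ND) replicate 3). *Dram1*, a lysosomal membrane protein, rose under LID by 0.74 ± 0.12 (edgeR adjusted p = 0.000264), and *Fasn*, the fatty acid synthase, fell under ND by 1.22 ± 0.28 (adjusted p = 0.00709). Levels within the list ranged widely. *Sfta2* and *Cxcl15*, named here after their low values were seen, were near the limit of detection, with *Sfta2* at 0.0600 CPM or less and *Cxcl15* at 0.932 CPM for WT(ND) replicate 3 and at 0.251 CPM or less elsewhere.

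**Figure D4:**
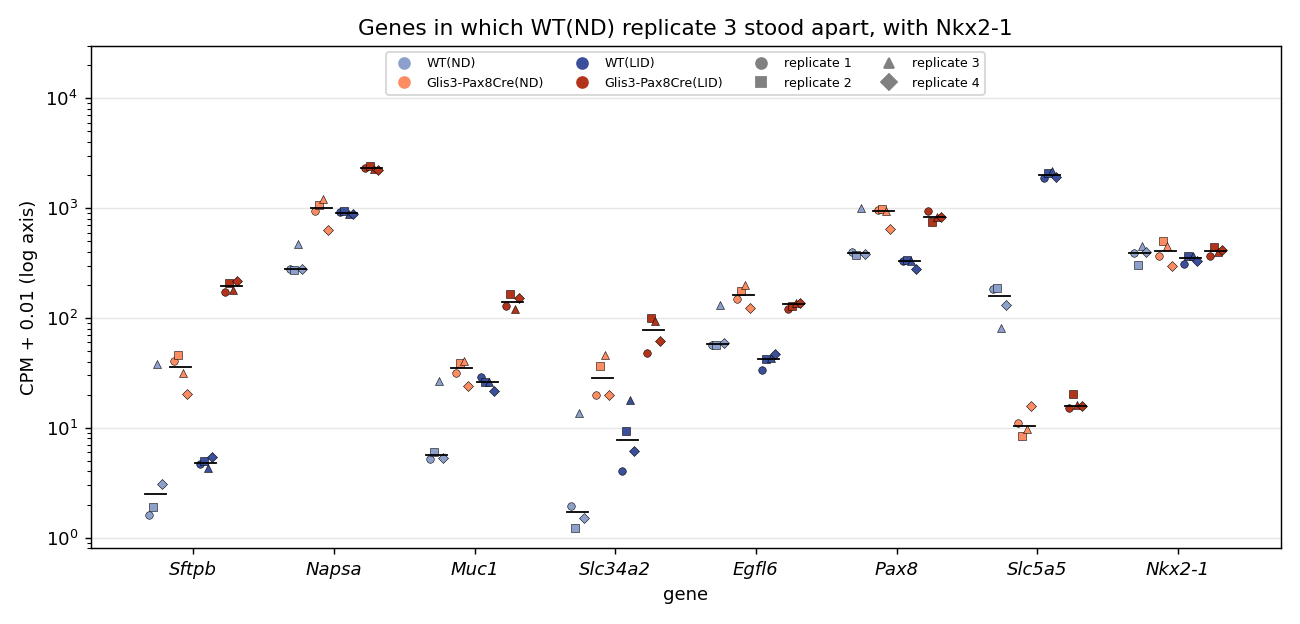
CPM + 0.01 on a log axis for *Sftpb*, *Napsa*, *Muc1*, *Slc34a2*, *Egfl6*, *Pax8*, *Slc5a5* and *Nkx2-1*, 1 point per library with colour for the group and shape for the replicate number, and a bar at the group median. The triangle of WT(ND) replicate 3 lies away from the other WT(ND) points for the first 7 genes, as at 996 CPM of *Pax8*, and *Nkx2-1* differs little between groups.

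The 10 alveolar type 1 genes split in direction. *Ager*, the receptor RAGE, was at 133 to 165 CPM for WT(LID) and 441 to 663 CPM for *Glis3*-Pax8Cre(LID), and rose by a log2 fold change of 1.93 ± 0.22 (edgeR adjusted p = 9.78e-06). It was not higher in the knockout under ND, at 706 to 1249 CPM in WT and 367 to 750 CPM in *Glis3*-Pax8Cre, and the interaction was 2.5 ± 0.30 (edgeR adjusted p = 7.84e-05). The water channel gene *Aqp5* rose under LID (1.41 ± 0.32, adjusted p = 0.00414) and was lower under ND (-1.25 ± 0.32, adjusted p = 0.0156). *Cav1*, which encodes the caveolae protein caveolin 1, was lower on both diets (-0.83 ± 0.17, adjusted p = 0.00131, and -0.53 ± 0.17, adjusted p = 0.0353). *Pdpn*, podoplanin, was lower under LID (-0.75 ± 0.20, adjusted p = 0.00855), and the chloride channel family gene *Clic5* under ND (-0.48 ± 0.13, adjusted p = 0.0166). Some of the ND calls were lost when 1 library was left out. These were *Aqp5* without WT(ND) replicate 4 (adjusted p = 0.0548), *Cav1* without WT(ND) replicate 2 or 4 or *Glis3*-Pax8Cre(ND) replicate 3 or 4 (highest adjusted p 0.115), and *Clic5* without WT(ND) replicate 1 or 4 or *Glis3*-Pax8Cre(ND) replicate 3 (highest adjusted p 0.0615). The tight junction gene *Cldn18*, whose lung form is typical of alveolar cells, was at 0.314 CPM or less in every library.

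Of 12 other club and goblet cell genes, 11 were tested. Under LID 7 were higher, where 14.9% of all genes were, and without *Glis3*-Pax8Cre(LID) replicate 1 this was 2 of 11, where 12.8% of all genes were. *Bpifa1* (4.14 ± 1.21, edgeR adjusted p = 0.0203), *Ltf* (3.67 ± 1.28, adjusted p = 0.0446) and *Cyp2f2* (1.23 ± 0.44, adjusted p = 0.0495) lost their calls without it, with adjusted p of 0.158, 0.624 and 0.345, while *Aldh1a1*, a retinal dehydrogenase, kept its call at a smaller difference (1.08 ± 0.31, adjusted p = 0.0158, then 0.49 ± 0.15, adjusted p = 0.0283). *Aldh1a1* lost its call without WT(LID) replicate 2 (adjusted p = 0.0505), *Bpifa1* also without WT(LID) replicate 2 or 4 (adjusted p of 0.0606 and 0.0584), and over the 16 fits that each left out 1 library *Cyp2f2* lost its call in 12 and *Ltf* in 10. Under ND 1 was higher, where 10.3% of all genes were. It was *Spdef*, a factor of goblet cells, at 1.82 to 4.69 CPM for WT(ND) and 11.6 to 22.7 CPM in the *Glis3*-Pax8Cre(ND) mice (2.60 ± 0.27, edgeR adjusted p = 3.20e-05).

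No ciliated cell gene was called higher on either diet, of 8 tested among 11 listed. Over all genes 14.9% were called higher under LID and 10.3% under ND, so with 8 genes this lies near the share of all genes. *Foxj1*, the master factor of motile cilia, was at 1.88 to 2.94 CPM for WT(LID) and at 1.06 CPM or less in *Glis3*-Pax8Cre(LID), with a log2 fold change of -2.16 ± 0.47 (edgeR adjusted p = 0.00236), and the dynein gene *Dnah5* was also lower (-1.39 ± 0.46, adjusted p = 0.0345), a call lost in 7 of the 16 fits that each left out 1 library (highest adjusted p 0.101). Of 6 airway basal cell genes, *Trp63*, the p63 factor, was lower on both diets (-1.08 ± 0.15, adjusted p = 6.24e-05, and -0.59 ± 0.15, adjusted p = 0.0125, the latter lost without WT(ND) replicate 4 with an adjusted p of 0.0528), and *Krt15* was higher under LID (4.38 ± 1.13, edgeR adjusted p = 0.00956, and 2.15 ± 0.75, adjusted p = 0.0471, without replicate 1). Among 14 lung epithelial transcription factors, of which 13 were tested, *Foxa1*, a forkhead factor of lung and thyroid endoderm, was lower on both diets (-0.94 ± 0.22, adjusted p = 0.00434, and -1.67 ± 0.23, adjusted p = 0.000203). The ETS factor gene *Elf5* was higher on both (1.70 ± 0.30, adjusted p = 0.000555, and 0.89 ± 0.29, adjusted p = 0.0467). Its ND call was lost in 12 of the 16 fits that each left out 1 library (highest adjusted p 0.125), and without WT(ND) replicate 3 the value was 1.32 ± 0.23 (adjusted p = 0.00105). Under LID *Id2*, an inhibitor of helix-loop-helix factors, was higher (1.58 ± 0.23, adjusted p = 0.000125), and the zinc finger factor gene *Gata6* lower (-1.08 ± 0.22, adjusted p = 0.00151). Under ND the ETS factor gene *Ehf* was higher (1.35 ± 0.12, adjusted p = 6.45e-06) and *Foxa2* lower (-1.12 ± 0.20, adjusted p = 0.00167).

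**Figure D5:**
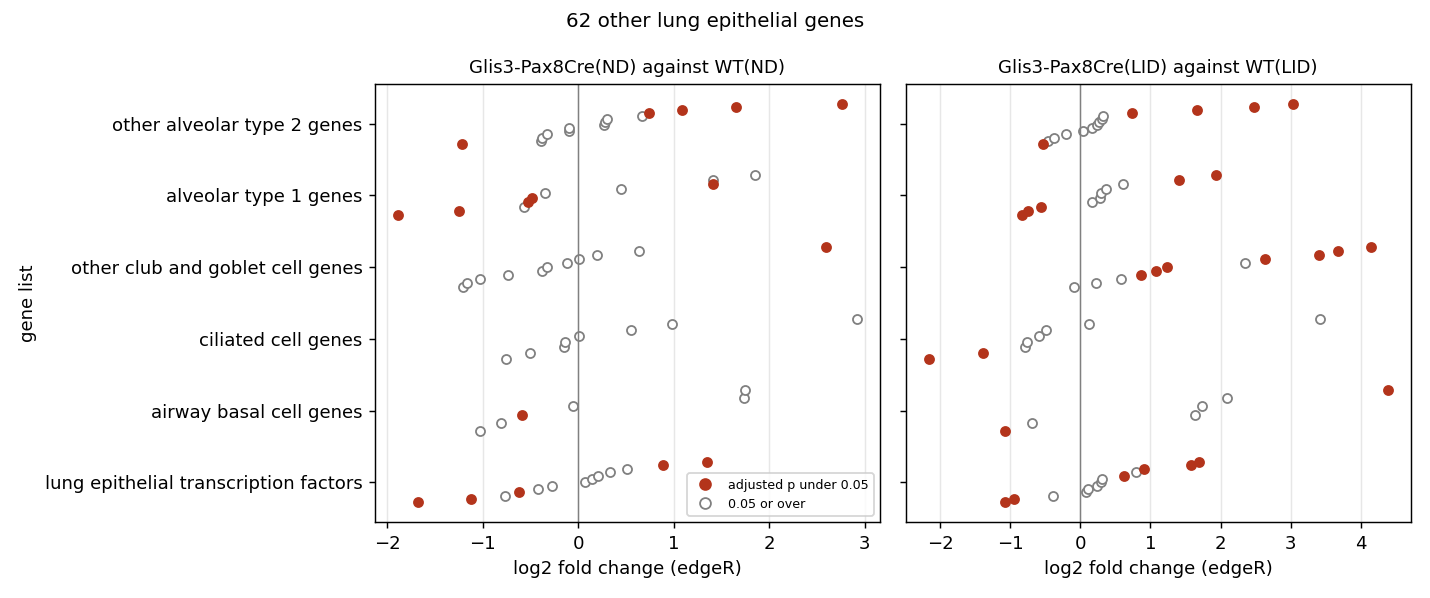
Fitted log2 fold changes of the 62 other lung epithelial genes that were tested, knockout against WT under ND (left) and LID (right), 1 point per gene in 6 lists, filled where the edgeR adjusted p was under 0.05. Called genes lie on both sides of 0, with 18 higher and 9 lower under LID and 8 higher and 9 lower under ND.

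*Nkx2-1*, which encodes the factor shared by thyroid and lung, was at 386 ± 59.4 CPM for WT(ND), 404 ± 90.8 CPM in the *Glis3*-Pax8Cre(ND) mice, 344 ± 26.3 CPM for WT(LID) and 406 ± 28.8 CPM for *Glis3*-Pax8Cre(LID) (SD, n = 4 each). The genotypes differed by 0.24 ± 0.14 under LID (edgeR adjusted p = 0.236) and by 0.07 ± 0.14 under ND (adjusted p = 0.783) on the log2 scale, and the first was called with the library size alone (adjusted p = 0.0272) and in the 8 LID samples alone (adjusted p = 0.0468). Thyroid genes that depend on NKX2-1 or act beside it split in direction in the knockout under LID. *Slc5a5* (-6.92 ± 0.29, adjusted p = 7.78e-10), *Duox2*, an oxidase of hormone synthesis (-1.55 ± 0.19, adjusted p = 2.33e-05), and *Tg*, thyroglobulin (-1.28 ± 0.23, adjusted p = 0.000683), were lower. *Pax8*, the thyroid factor whose locus carries Cre in the knockout (1.39 ± 0.27, adjusted p = 0.00101), *Tshr*, the thyrotropin receptor (1.05 ± 0.26, adjusted p = 0.00599), and *Hhex*, a homeobox factor (0.96 ± 0.17, adjusted p = 0.000597), were higher. *Foxe1*, a forkhead factor of the thyroid, was not called (-0.16 ± 0.19, adjusted p = 0.585). Under ND *Tshr* was higher, and *Slc5a5*, *Duox2* and *Tg* were lower. *Pax8* was not called under ND with all libraries, and it was called under 6 of 25 alternatives. When 1 library was left out its ND log2 fold change ranged from 0.58 to 1.21, the highest without WT(ND) replicate 3.

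Genes most like *Sftpb* were sought among 11674 genes with a mean of 5 CPM or more, as a description with no test over 16 libraries that share their groups. By Pearson r of log2 CPM they were *Pnrc2* (0.963), *Col25a1* (0.962), *Car8* (0.962), *Tceal3* (0.961), *Zik1* (0.961), *Rprm* (0.959), *Gja1* (0.956) and *Snx6* (0.956). *Col25a1*, a transmembrane collagen gene, was at 13.9 CPM for WT(ND), 93.4 CPM in the *Glis3*-Pax8Cre(ND) mice, 20.4 CPM for WT(LID) and 293 CPM for *Glis3*-Pax8Cre(LID) as means of 4, the same order of diets within the knockout as *Sftpb*. Within groups, by deviations from the group means, the closest were *Dcpp3* (0.966), *Dcpp1* (0.965), *Sec1* (0.963), *Lipk* (0.959), *Ntn5* (0.953), *Atp6v1c2* (0.950), *Ggt5* (0.946) and *Wfikkn2* (0.946). These values were carried by WT(ND) replicate 3, as *Dcpp3* was at 75.2 CPM there and at 1.39 to 1.93 CPM in the other WT(ND) libraries, and without it 7 of the 8 fell to between 0.474 and 0.642 (*Ggt5* stayed at 0.950). By log2 CPM over all 16 libraries, r with *Sftpb* was 0.834 for *Napsa*, 0.749 for *Sftpd*, 0.617 for *Sftpa1*, -0.0207 for *Sftpc* and -0.309 for *Abca3*. By deviations from the group means these were 0.778, 0.737, 0.951, 0.455 and 0.257. Without WT(ND) replicate 3 the deviations gave 0.579, -0.562, 0.392, 0.296 and 0.326, so the sign for *Sftpd* turned.

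Markers of other cells differed between libraries. The summed level of 8 thymocyte markers was 2502 CPM in the *Glis3*-Pax8Cre(ND) mice replicate 4, 137 CPM for WT(ND) replicate 1, 199 CPM for WT(LID) replicate 3 and 294 CPM for *Glis3*-Pax8Cre(LID) replicate 4, with group medians of 1.64 to 15.7 CPM. *Glis3*-Pax8Cre(ND) replicate 4 had the lowest *Sftpb* and *Napsa* of its group. All 6 macrophage markers were called higher in *Glis3*-Pax8Cre(ND) than in WT(ND), where 10.3% of all genes were. Their sums were 274 to 326 CPM and 162 to 240 CPM under ND, and 194 to 261 CPM against 214 to 233 CPM under LID. The B cell sums, 6.00 to 13.6 CPM over all libraries, overlapped in every group, and so did the 5 esophageal markers apart from 3.52 CPM in *Glis3*-Pax8Cre(LID) replicate 1, with *Sprr3* at 0 throughout. Summed parathyroid markers were 225 to 2099 CPM in *Glis3*-Pax8Cre(LID) and 858 to 1676 CPM for WT(LID). Under ND the same sums were 3289 to 5180 CPM in *Glis3*-Pax8Cre and 3477 to 6005 CPM in WT. Summed C-cell markers were 1261 to 3213 CPM in *Glis3*-Pax8Cre(LID) and 2346 to 3688 CPM for WT(LID). Under ND the C-cell sums did not overlap, at 3367 to 5824 CPM in *Glis3*-Pax8Cre and 7320 to 9615 CPM in WT. Skeletal muscle markers ranged from 0.667 to 1298 CPM within a single group. The part of these cell types in the results was not tested.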

How the data were processed

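RNA-Seq was done on thyroid glands of 16 mice, 4 per group. The authors aligned reads with STAR 2.5 to mm10 and counted them per RefSeq gene with featureCounts 1.5.0-p1 of Subread, without regard to strand, and the deposited values are these raw counts. Reads came from a NextSeq or a NovaSeq, the instrument of each library is not given in the sources used here, and no instrument term was fitted. Counts were normalised by TMM and tested with edgeR 4.0.16 (R 4.3.3), by its quasi-likelihood test on all 16 samples after filterByExpr, with Benjamini-Hochberg adjustment over 16630 genes and a threshold of 0.05. CPM carries no pseudocount except in plots. The contrasts were the genotypes within each diet, the diets within each genotype and their interaction. The SE of a log2 fold change was derived from its test, as the absolute value over the square root of the quasi-likelihood F statistic. This holds for *Sftpb* too, whose SE is given as a description. Alternatives were DESeq2 1.42.0, library size alone, other filters and thresholds, the 8 samples of a comparison, a replicate block and leaving out each library, and leaving out both libraries that stood apart was chosen after seeing the data. Totals ranged 33.2-fold, from 13892352 to 461077969, so precision at low counts differed between libraries. The tests were also tested on simulated data.

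The 10 genes and all lists were chosen with earlier results of these data known. Named were all 10 genes, *Nkx2-1* and thyroid genes listed beside it, of which 1 is not reported here, the 8 genes most like *Sftpb* by each measure among those with a mean of at least 5 CPM, and, per lung list and genotype comparison, up to 4 called genes with the largest change and a mean of at least 1 CPM. Values of other genes, such as those at low levels, were chosen after their values were seen. Same-numbered samples deviated together in all 4 pairs between the knockout diets (r of 0.212 to 0.648), and in no other comparison did every pair (lowest r -0.521), and the labels give no shared litter or day. All 24 pairs of replicates differed by more than counting noise. P-values measure the spread between these samples.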

Additional observations from a re-analysis of the deposited data

Results flagged for a closer look

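In 17 of 60 groups of 4 samples tested, the highest or lowest sample lay farther from its neighbour than Dixon's critical value allows. Chance gives about 1 in 20 such groups where values are normal and the genes are chosen without the data. Here the rule was run on CPM, some of it from few counts, and genes measured in the same library are not independent. Besides the surfactant and secretoglobin genes, those tested included *Pax8*, *Slc34a2*, *Muc1* and *Bpifa1*, and the genes were chosen with earlier results of these data known. The number of flagged groups therefore cannot be weighed against that rate, and the flags serve as a description. WT(ND) replicate 3 accounted for 9 of the 17 flagged groups. It was high in *Sftpa1* (12.0 CPM), *Sftpb* (38.0 CPM), *Sftpc* (0.890 CPM), *Sftpd* (1.67 CPM), *Napsa* (472 CPM), *Lamp3* (0.565 CPM), *Pax8* (996 CPM), *Slc34a2* (13.7 CPM) and *Muc1* (26.6 CPM). *Glis3*-Pax8Cre(LID) replicate 1 accounted for 5, and was high in *Sftpd* (1.14 CPM), *Scgb1a1* (27.8 CPM), *Scgb3a1* (25.7 CPM), *Scgb3a2* (27.6 CPM) and *Bpifa1* (193 CPM). The others were *Sftpa1* in WT(LID) replicate 1 (0.182 CPM, high) and *Pax8* in *Glis3*-Pax8Cre(ND) replicate 4 (643 CPM, low) and WT(LID) replicate 4 (280 CPM, low).

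The edgeR interaction test, of whether the genotype difference differed between the diets, called 4 of the lung genes with all libraries. The interaction was -0.944 for *Abca3*, 7.74 for *Scgb1a1*, 7.04 for *Scgb3a1* and 7.89 for *Scgb3a2* on the log2 scale. Without *Glis3*-Pax8Cre(LID) replicate 1 the secretoglobin values were 4.95, 4.53 and 4.48. Of 23 alternatives, the call was lost under 16 for *Scgb1a1*, 2 for *Scgb3a1* and 8 for *Scgb3a2*. No secretoglobin kept its interaction call without both libraries that stood apart. *Abca3* kept its call under all 24 of its alternatives.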

How the results depend on the processing

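Of 958 values of the 8 tested lung genes other than *Sftpb* recomputed under an alternative, 880 kept their direction and their side of the threshold. Settings in which a gene failed the filter or had no adjusted p are not among the 958. Values called in neither fit count as kept, so this share does not measure how far the calls held. Lung genes other than *Sftpb* called between the LID genotypes were 6, and 3 at an adjusted p under 0.01 with a fold over 2, 2 with at least 10 counts in every sample, and 3 to 7 when 1 library was left out. Under ND 1 was called, 3 without both libraries that stood apart, and 1 to 3 when 1 library was left out. Between the WT diets 5 were called, 3 by DESeq2, with the replicate block or without both libraries, 2 with at least 10 counts in every sample, and 3 to 5 when 1 library was left out. Between the knockout diets 4 were called, 2 at the stricter threshold or in the 8 samples alone, 1 with at least 10 counts in every sample, and 3 to 5 when 1 library was left out. For the interaction 4 were called by edgeR, 0 at the stricter threshold, 1 with at least 10 counts or without both libraries, and 1 to 5 when 1 library was left out. Among the lung genes other than *Sftpb*, only *Abca3* and *Napsa* had at least 10 counts in every sample, so the rest were not tested in that setting. *Sftpa1* and *Sftpd* had no adjusted p from DESeq2. Smaller counts of calls in these settings are therefore not all lost calls. Other lung epithelial genes called were 27 under LID, 11 at the stricter threshold and 19 to 32 when 1 library was left out, and 17 under ND, 7 at the stricter threshold, 9 in the 8 samples alone and 8 to 21 when 1 library was left out.

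The fitted log2 fold change of *Sftpb* under ND was 1.64, 3.95 without both libraries and 1.28 to 3.96 when 1 library was left out. The sign turned in the following cases, and the cause was not tested. Under ND *Sftpa1* went to 1.32 with the replicate block and 3.60 without both libraries, with a range of -0.79 to 3.62 when 1 library was left out, and *Sftpd* to 0.86 and 3.48, with a range of -1.28 to 3.49. WT(ND) replicate 3 gave the high end of each of these 3 ranges. *Abca3* under ND went to 0.033 with library size alone and ranged from -0.16 to 0.030, and *Nkx2-1* ranged from -0.054 to 0.20, with -0.028 without WT(ND) replicate 2. Between the knockout diets *Sftpd* went to -0.080 without both libraries and ranged from -0.084, without *Glis3*-Pax8Cre(LID) replicate 1, to 1.21. The interaction of *Sftpa1* went to -0.74 without both libraries and ranged from -0.87, without WT(ND) replicate 3, to 3.54. With library size alone, the median over all tested genes shifted on the log2 scale by 0.146 (LID genotypes), 0.122 (ND genotypes), -0.157 (WT diets) and -0.133 (knockout diets). DESeq2 gave no adjusted p for *Sftpa1* and *Sftpd*. Low counts in WT limit the fitted folds, which then depend on the prior count.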
